A study of Mus musculus with 25 samples.

Results

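G-protein-coupled receptors carry hormone, nutrient and lipid signals across the plasma membrane, and the genes compared here were those whose symbol is Gpr followed by a number or Ffar followed by a number. This rule found 100 genes (98 symbols, because Gpr45 and Gpr173 each have 2 gene identifiers) among the 24439 genes of the RNA-seq tables, and 201 open chromatin peaks, annotated to 66 genes, among 65053 consensus ATAC-seq peaks. ATAC-seq reads out DNA that a transposase can reach, and RNA-seq reads out transcript levels. Both were made from αTC1 clone 6 and βTC6, mouse pancreatic alpha and beta cell tumour lines that were derived from mice carrying a viral T antigen under a glucagon and an insulin promoter, respectively, with 3 RNA-seq libraries and 5 ATAC-seq libraries of each line. A further 9 ATAC-seq libraries came from αTC1 and βTC6 cells mixed in steps of 10%, from 10% to 90% βTC6, with 1 library at each step. No library was treated with an agent. Each line is a single established line and the 2 were grown in different media, with different amounts of serum, so that line and medium cannot be told apart. No label says that replicates came from separate cultures, so p-values measure the spread between these libraries, which may be technical.

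Receptors of this kind signal through Gα proteins. Gs raises cyclic AMP, Gi lowers it, and Gq acts through phospholipase C and calcium. In islets, the receptor for medium- and long-chain fatty acids, Ffar1 (also called GPR40), couples to Gq and increases insulin release at high glucose, and Gpr119, a Gs-coupled receptor for oleoylethanolamide and lysolipids, raises cyclic AMP in endocrine cells. Many other genes that carry a Gpr number encode receptors with no agreed ligand, adhesion receptors with long extracellular parts, or membrane proteins of the Golgi and lysosome that carry the name without acting as classical receptors.

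The RNA-seq libraries held 21795367 to 25876765 expected counts in genes, and the ATAC-seq libraries of the pure lines held 4397851 to 10374903 reads in peaks. All 6 beta-cell markers tested, among them Ins1, Ins2 and Pdx1, were called higher in βTC6, and summed to between 25380 and 37990 FPKM (fragments scaled by transcript length and library size) there against 13.6 to 14.9 FPKM in αTC1. Of 7 alpha-cell marker genes (6 symbols, as Irx2 has 2 identifiers), all but Ttr were called higher in αTC1, and these 6 summed to between 12350 and 14700 FPKM in αTC1 against 194.1 to 282.6 FPKM in βTC6. Ttr was at 835.3 ± 154 and 1116 ± 526 FPKM. The sum of 8 immune cell markers was 1.8 to 2.46 FPKM in every library, and that of 6 markers of other pancreatic cells was 0.4 to 1.28 FPKM.

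Many of these receptor genes had few or no reads in both lines. No read was assigned to 8 of the 100 in any library (Gpr12, Gpr15, Gpr31c, Gpr33, Gpr101, Gpr143, Gpr171 and Gpr174), and 46 had a mean below 0.1 FPKM in both lines. At least 1 FPKM in all 3 replicates was reached by 21 genes in αTC1 and by 28 in βTC6, and 17 genes reached it in both. Summed over all members, the level was 347.9 to 350.72 FPKM in αTC1 and 326.19 to 356.78 FPKM in βTC6, so the lines overlapped in their total while differing in which receptors made it up. The 5 highest in αTC1 were Gpr81, Gpr19, Gpr162, Gpr119 and Gpr137, and the 5 highest in βTC6 were Ffar1, Gpr108, Gpr56, Gpr137 and Gpr19. In bulk RNA a lower level in fewer cells and a lower level in each cell cannot be told apart.

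**Figure D1:**
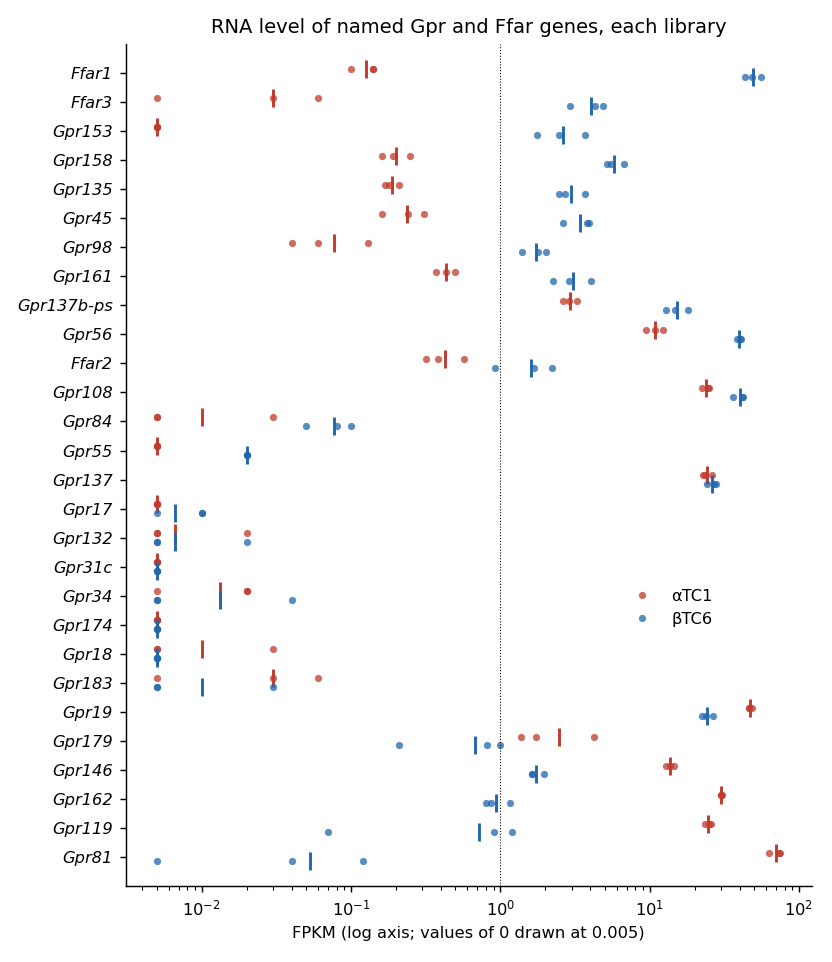
RNA level of each named gene in each library, in FPKM on a log axis, for αTC1 (red) and βTC6 (blue); points are the 3 replicates of a line, ticks are their means, values of 0 are drawn at 0.005, and the dotted line marks 1 FPKM. Gpr81 and Ffar1 sit at opposite ends, with Gpr81 above 62 FPKM in αTC1 alone and Ffar1 above 43 FPKM in βTC6 alone.

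A gene was tested where it had at least 1 FPKM in all 3 replicates of either line, which 32 of the 100 did, and 15 of those 32 passed through 1 line only (4 through αTC1, 11 through βTC6), so that a difference was built into their entry. The fit was edgeR's quasi-likelihood test over all 12195 genes that met this filter, and a gene was called where the Benjamini-Hochberg FDR was under 5% and the log2 fold change, given throughout as βTC6 over αTC1, was beyond 2 in either direction. Calls were made for 9 members higher in βTC6, namely Ffar1, Ffar3, Gpr45, Gpr98, Gpr135, Gpr137b-ps, Gpr153, Gpr158 and Gpr161, against 10.2% of all genes tested, and for 5 members higher in αTC1, namely Gpr81, Gpr119, Gpr146, Gpr162 and Gpr179, against 4.08% of all genes tested. In either direction 14 of 32 were called, against 14.3% of all genes tested, and the 68 untested members do not enter this count. Of the 14, only Gpr137b-ps and Gpr146 had reached 1 FPKM in all replicates of both lines, as 17 of the 32 had. The other calls came from members that passed through 1 line only. No share of all genes was matched for such entry, so 14 of 32 cannot be read as an excess over 14.3%. The median log2 fold change was 0.997 over the 32, beside 0.01 over all genes tested. At an FDR under 5% with no limit on fold, 18 members were higher in βTC6 (38.7% of all genes tested), 9 were higher in αTC1 (36.0% of all) and 5 did not pass (74.6% of all passed in either direction). The 3 libraries of one line lay wholly above those of the other for 29 of the 32, against 77.7% of all genes tested.

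**Figure D2:**
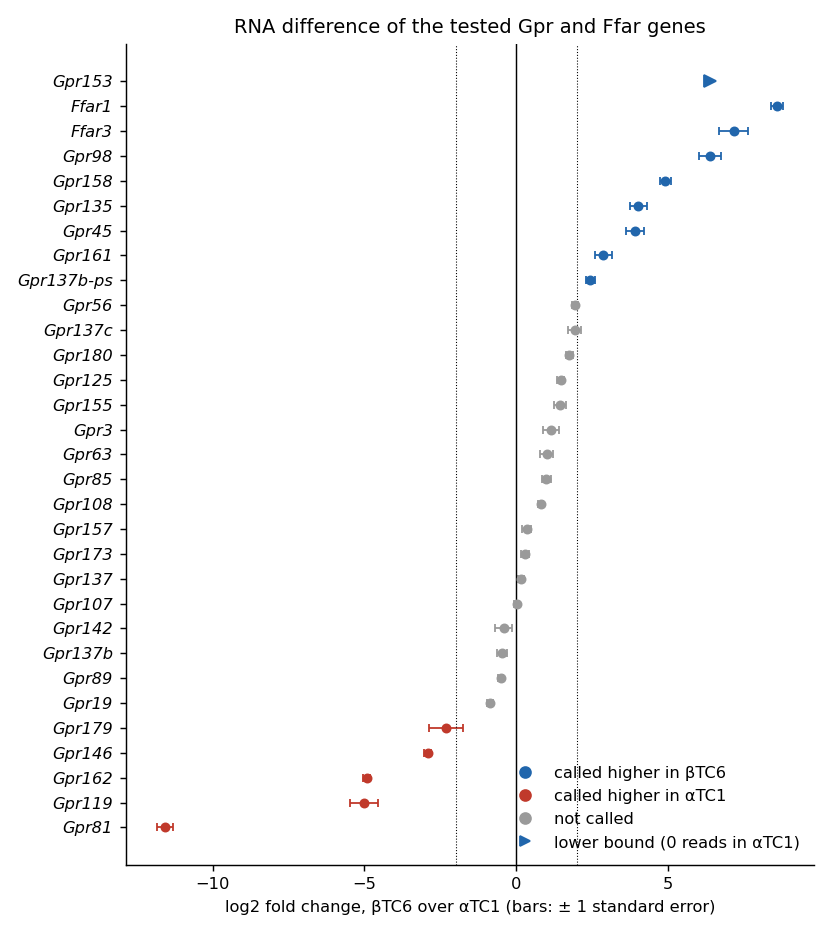
log2 fold change of RNA, βTC6 over αTC1, for tested genes from edgeR with bars of ± 1 standard error; blue and red mark calls in βTC6 and αTC1, grey marks genes that were not called, and dotted lines mark the fold limit of 2. Gpr153 had no read in αTC1 and is drawn as an arrow at its lower bound (83.3-fold), and the largest difference towards αTC1 was that of Gpr81 at -11.57.

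Among the receptors for fatty acids and other lipids, Ffar1 and Ffar3 were higher in βTC6, and Gpr119 was higher in αTC1. These were the 3 tested of 13 genes on this list that the tables hold. Each passed the filter only through the line where it was high, so that a difference was built into their entry. All 3 were called, beside 14.3% of all genes tested, a share not matched for such entry. Ffar1 (chr7:31645587-31646489, minus strand, mm9) was at 0.10, 0.14 and 0.14 FPKM in the αTC1 libraries and at 55.8, 43.6 and 48.7 FPKM in the βTC6 libraries. It was thus close to nothing in every αTC1 library and the highest of all members in βTC6, with no overlap. The means were 0.127 ± 0.0231 and 49.4 ± 6.11 FPKM (SD, n = 3 each), and the log2 fold change was 8.58 (SE 0.20, edgeR adjusted p = 4.14e-09).

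Ffar3, a Gi-coupled receptor for short-chain fatty acids, lies downstream of Ffar1 on the same strand (chr7:31639349-31641197), with 4389 bp between the 2 genes. It had 3 reads in all αTC1 libraries together and 494 in the βTC6 libraries, a ratio of 160 after scaling for depth, with an exact 95% interval of 54.5 to 779 that covers counting error only. In FPKM the αTC1 libraries were at 0.06, 0.03 and 0 and the βTC6 libraries at 4.28, 2.91 and 4.89 (log2 fold change 7.16, SE 0.48, edgeR adjusted p = 1.47e-06). Ffar3 was lower than Ffar1 in every βTC6 library, and whether its reads come from a transcript that starts at Ffar1 was not tested. Ffar2, the other short-chain fatty acid receptor of this cluster (chr7:31603376-31608794), was at 0.57, 0.32 and 0.38 FPKM in αTC1 and at 1.69, 2.23 and 0.92 FPKM in βTC6. The βTC6 libraries were all above the αTC1 libraries, but 1 of them fell short of 1 FPKM, so Ffar2 was not tested in the fit above. Without the filter on low levels its log2 fold change was 1.91 (SE 0.36, edgeR adjusted p = 0.000542), inside the fold limit.

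The long-chain fatty acid receptor Ffar4, known as GPR120, appears in the RNA-seq tables as O3far1 (chr19:38171569-38188753) and so stood outside the symbol rule, while its peaks carry the name Ffar4. O3far1 was at 0.89, 0.96 and 0.70 FPKM in αTC1 and at 21.6, 17.3 and 21.7 FPKM in βTC6. The groups did not overlap, and the log2 fold change was 4.63 (SE 0.17, edgeR adjusted p = 4.86e-08).

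Gpr119 went the other way. It lies at chrX:46021156-46027655 on the minus strand and was at 24.8, 25.6 and 23.5 FPKM in αTC1, against 0.90, 1.19 and 0.07 FPKM in βTC6. The αTC1 libraries were close to each other, and βTC6 replicate 3 lay well below the other two. The log2 fold change was -5.02 (SE 0.46, edgeR adjusted p = 9.91e-06). The remaining lipid receptors were near the limit of detection in both lines. Summed over 3 libraries, Gpr84 (medium-chain fatty acids) had 1 read in αTC1 and 9 in βTC6, Gpr55 (lysophosphatidylinositol) had 0 and 3, and Gpr183 (oxysterols) had 6 and 2. Gpr17, Gpr18, Gpr34 and Gpr132 had at most 2 reads in either line, and Gpr31c and Gpr174 had none. No difference was detectable at this depth for genes with so few reads.

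Open chromatin near these lipid receptors followed the RNA in sign at the peaks nearest to the start sites of Ffar1, Ffar4 and Gpr119. Values are reads per peak after the authors' TMM scaling, on which 1 read is worth 0.0939 to 0.205 depending on the library. They are therefore not numbers of reads. Log2 fold changes are on the log2(value + 1) scale, tested with limma over all 65053 peaks under the same limits. The Ffar4 peak that spans the start site (204 bp from it, chr19:38171433-38172113) was at 0.980, 2.39, 1.05, 2.46 and 2.02 in the αTC1 libraries and at 23.9, 25.0, 21.9, 20.0 and 17.0 in the βTC6 libraries. No αTC1 library came near the lowest βTC6 library. Means were 1.78 ± 0.717 and 21.5 ± 3.19 (SD, n = 5 each), and the peak was called more open in βTC6 (a log2 fold change of 3.05, SE 0.21, limma adjusted p = 7.46e-11). None of the other 5 peaks annotated to Ffar4 was called. The peak 1096 bp upstream of Ffar1 (chr7:31647402-31647767) was weak but did not overlap between lines: it was at 1.40, 1.83, 0.902, 1.91 and 1.01 in αTC1 and at 7.53, 6.36, 8.65, 9.27 and 6.85 in βTC6. The means were 1.41 ± 0.459 and 7.73 ± 1.22. Its log2 fold change of 1.87 (SE 0.21, limma adjusted p = 1.06e-07) was inside the fold limit, and it passed that limit in edgeR on the recovered reads, at 2.44. It was also the peak nearest to Ffar3, 6388 bp from that gene's start site, and Ffar3 had no peak of its own within 2 kb. The second Ffar1 peak, 2168 bp upstream, was at 19.8 ± 1.42 in αTC1 and 14.8 ± 4.45 in βTC6 (a log2 fold change of -0.44), so it had the opposite sign.

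At Gpr119, the peak over the start site (chrX:46027101-46027822) was at 31.0, 32.0, 29.2, 36.0 and 29.3 in αTC1 and at 8.52, 6.56, 8.51, 8.85 and 6.57 in βTC6. The lines did not overlap, and the log2 fold change was -1.89 (SE 0.13, limma adjusted p = 5.66e-11), just inside the fold limit; edgeR on the recovered reads gave -2.01. A second Gpr119 peak 989 bp upstream was at 31.4 ± 3.38 and 11 ± 3.16 (log2 fold change -1.49). At Ffar2 the sign went against the RNA: the peak 760 bp inside the gene was at 8.1 in αTC1 and 4.45 in βTC6 (a log2 fold change of -0.75), although the median of all chromosome 7 peaks was itself -0.57. At Gpr183, with 6 reads in αTC1 and 2 in βTC6, the peak 1369 bp from the start site was at 1.54, 1.40, 1.05, 0.409 and 2.46 in αTC1 and at 14.3, 17.6, 15.3, 12.6 and 18.4 in βTC6. It was called more open in βTC6 (a log2 fold change of 2.86, SE 0.23, limma adjusted p = 1.05e-09), on chromosome 14, whose peaks had a median of 1.54.

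The sequences at the centres of the upstream peaks of Ffar1 and Gpr119 are shown because these peaks lie beside the receptors with the opposed RNA pattern. Both are 200 bases of the mm9 plus strand, and since both genes lie on the minus strand the genes lie to the left of them. Capitals mark matches, on either strand, to CAGCTG (an E-box), GGGCGG (a GC box), TAATTA (the core bound by many homeodomain factors), TGTTTAC (a forkhead core) or TGACGTCA (a cyclic AMP response element). Among 200-base centres of all 65053 peaks, 17.2% held CAGCTG, 15.5% GGGCGG, 6.92% TAATTA, 6.32% TGTTTAC and 0.761% TGACGTCA. The Ffar1 window held 1 match each to GGGCGG and CAGCTG, and the Gpr119 window held no match.
Ffar1 upstream peak, chr7:31647484-31647683: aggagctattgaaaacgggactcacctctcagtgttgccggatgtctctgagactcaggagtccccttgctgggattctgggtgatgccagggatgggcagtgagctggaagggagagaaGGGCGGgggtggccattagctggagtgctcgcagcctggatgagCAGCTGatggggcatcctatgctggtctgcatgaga
Gpr119 upstream peak, chrX:46028543-46028742: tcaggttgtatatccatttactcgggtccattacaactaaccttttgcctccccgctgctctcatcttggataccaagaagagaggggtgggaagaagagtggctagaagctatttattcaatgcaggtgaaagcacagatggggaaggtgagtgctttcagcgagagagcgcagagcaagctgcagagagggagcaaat

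Among receptors for other small ligands, the widest difference was that of Gpr81, the Gi-coupled lactate receptor that is now named Hcar1 (chr5:124326745-124330029, minus strand). It was at 75.2, 73.1 and 62.8 FPKM in αTC1, the highest of all members there, and at 0.12, 0.04 and 0 FPKM in βTC6. The sums were 15893 reads in αTC1 and 5 in βTC6, and the log2 fold change was -11.57 (SE 0.26, edgeR adjusted p = 3.13e-09). The peak 26 bp upstream of its start site, annotated as Hcar1 and so outside the symbol rule, was at 13.2, 12.2, 16.5, 15.3 and 13.0 in αTC1 and at 2.84, 0.820, 1.89, 1.71 and 1.22 in βTC6. Every αTC1 library was higher, and the peak was called more open in αTC1 (log2 fold change -2.52, SE 0.22, limma adjusted p = 2.6e-09). Gpr142, a receptor for aromatic amino acids, was at 5.19, 6.73 and 10.8 FPKM in αTC1 and at 6.71, 5.32 and 4.46 FPKM in βTC6. These overlapped, and the log2 fold change of -0.41 (SE 0.28) did not pass (edgeR adjusted p = 0.208). Gpr3, which holds Gs active without a ligand, was the only 1 of 3 in its list that was tested. It was at 0.64, 0.72 and 0.96 FPKM in αTC1 and at 1.48, 1.29 and 1.94 FPKM in βTC6 (a log2 fold change of 1.15, SE 0.26, edgeR adjusted p = 0.00297).

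Of the receptors without an agreed ligand, Gpr162 and Gpr146 were higher in αTC1. Gpr162 (chr6:124808462-124813935) was at 30.2, 30.0 and 30.6 FPKM in αTC1 and at 0.80, 1.16 and 0.86 FPKM in βTC6. Its replicates were close within each line, and the log2 fold change was -4.93 (SE 0.12, edgeR adjusted p = 5.46e-09). The peak at its start site was at 28.2 ± 1.97 in αTC1 and 8.97 ± 2.08 in βTC6 (a log2 fold change of -1.57, SE 0.14, limma adjusted p = 3.92e-09), inside the fold limit, on a chromosome whose peaks had a median of -0.79. Gpr146 was at 14.6, 13.8 and 12.8 FPKM in αTC1 and at 1.64, 1.95 and 1.62 FPKM in βTC6 (a log2 fold change of -2.92, SE 0.11, edgeR adjusted p = 6.1e-08); it shares exon sequence with another gene on the same strand.

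The 3 peaks of Gpr146 were all lower in βTC6, by different amounts. The peak 59 bp from the nearest annotated start site was at 32.9 to 37.9 in αTC1 and 27.5 to 36.0 in βTC6, so the lines overlapped (log2 fold change -0.23, limma adjusted p = 0.0327), and this sign turned under quantile normalisation (0.068). The peak 2409 bp downstream (chr5:139858706-139859354) was at 35.7, 32.6, 33.2, 32.8 and 28.6 in αTC1 and at 3.98, 1.03, 4.19, 3.99 and 1.69 in βTC6. It was near closed in every βTC6 library and was called more open in αTC1 (log2 fold change -3.17, SE 0.22, limma adjusted p = 1.41e-10). The third peak, at the start of another annotated transcript (chr5:139865721-139865999), was at 12.9 ± 1.32 in αTC1 and 1.71 ± 0.64 in βTC6 and was also called (log2 fold change -2.38). Both called peaks lay inside the gene.

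Towards βTC6, Gpr45, Gpr135, Gpr153 and Gpr161 were called. Gpr45 (identifier ENSMUSG00000079587) was at 0.31, 0.24 and 0.16 FPKM in αTC1 and at 3.78, 2.61 and 3.92 FPKM in βTC6 (a log2 fold change of 3.91, SE 0.29, edgeR adjusted p = 2.69e-06), and the second identifier with this symbol was at 0.01 and 0.06 FPKM. Gpr135 was at 0.17, 0.18 and 0.21 FPKM and at 3.69, 2.47 and 2.72 FPKM (log2 fold change 4.02, SE 0.29, edgeR adjusted p = 2.26e-06). In both genes every βTC6 library lay well above every αTC1 library. Gpr161, a receptor of the primary cilium that restrains Hedgehog signalling, was at 0.37, 0.50 and 0.43 FPKM in αTC1 and at 4.06, 2.87 and 2.24 FPKM in βTC6 (a log2 fold change of 2.87, SE 0.27, edgeR adjusted p = 1.05e-05). Gpr153 had no read in αTC1 and 771 reads in βTC6, where it was at 2.47, 3.68 and 1.75 FPKM. Set against a floor of 3 reads in each αTC1 library, it was at least 83.3-fold higher in βTC6 (edgeR adjusted p = 1.17e-05).

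Gpr19, an orphan receptor expressed in both lines, was among the 5 highest of each and was not called. It was at 48.4, 46.4 and 46.3 FPKM in αTC1 and at 22.3, 26.5 and 23.9 FPKM in βTC6, without overlap (log2 fold change -0.87, SE 0.10, edgeR adjusted p = 3.94e-05). The median of all genes on its chromosome 6 was -0.76. The Gpr19 start site peak, annotated as 2810454H06Rik, was at 123 ± 9.77 in αTC1 and 37.9 ± 2.69 in βTC6, without overlap. Its log2 fold change was -1.67 (SE 0.09, limma adjusted p = 1.48e-12), beside a median of -0.79 for all chromosome 6 peaks. Whether the Gpr19 RNA difference is part of a shift of the whole chromosome was not tested.

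The class C receptors split as well. Gpr158, which binds regulators of G-protein signalling at synapses, was at 0.16, 0.19 and 0.25 FPKM in αTC1 and at 6.76, 5.47 and 5.19 FPKM in βTC6 (a log2 fold change of 4.90, SE 0.18, edgeR adjusted p = 4.2e-08). Gpr179, its relative in retinal bipolar cells, was at 1.73, 1.38 and 4.26 FPKM in αTC1 and at 0.99, 0.21 and 0.82 FPKM in βTC6. The αTC1 libraries were all higher, but replicate 3 was far above the other two, and the log2 fold change of -2.31 (SE 0.55, edgeR adjusted p = 0.00424) fell inside the fold limit without αTC1 replicate 3 (-1.56) or without βTC6 replicate 2 (-1.93).

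Of 17 adhesion receptors in the tables, 3 were tested (Gpr56, Gpr98 and Gpr125). All 3 were higher in βTC6 at an FDR under 5%, which 38.7% of all genes tested were, and Gpr98, which passed the filter through βTC6 only, was the 1 that was called. Among the untested, Gpr123 was at 0.36, 0.07 and 0.12 FPKM in αTC1 and at 0.10, 0.04 and 0.05 FPKM in βTC6, with overlap. Without the filter on low levels it was not called (log2 fold change -0.49, edgeR adjusted p = 0.451). In that fit Gpr64, Gpr111, Gpr112, Gpr115 and Gpr126 were called higher in βTC6, as 12.8% of all 19570 genes were. Each of them was below 1 FPKM in every library, and no other untested adhesion receptor was called. Gpr98 (now Adgrv1), a very large receptor of sensory hair cells, was at 0.04, 0.06 and 0.13 FPKM in αTC1 and at 2.02, 1.39 and 1.80 FPKM in βTC6 (a log2 fold change of 6.38, SE 0.36, edgeR adjusted p = 5.11e-07). The peak 71 bp upstream of its start site (chr13:81771792-81772635) was at 1.82, 3.23, 2.71, 2.59 and 3.32 in αTC1 and at 58.4, 63.0, 57.2, 59.2 and 59.2 in βTC6. Every βTC6 library lay far above every αTC1 library. Its means were 2.73 ± 0.602 and 59.4 ± 2.17 (log2 fold change 4.03, SE 0.13, limma adjusted p = 6.53e-15). Gpr56 (now Adgrg1), which binds collagen, was at 9.43, 10.9 and 12.4 FPKM in αTC1 and at 41.2, 40.4 and 38.2 FPKM in βTC6. Its log2 fold change of 1.93 (SE 0.11, edgeR adjusted p = 4.02e-07) was inside the fold limit and rose to 2.04 without αTC1 replicate 3. Its start site peak had the opposite sign, at 31 ± 2.91 in αTC1 and 22.6 ± 2.28 in βTC6 (a log2 fold change of -0.44). Gpr125 was at 3.52, 4.05 and 4.37 FPKM in αTC1 and at 10.4, 10.2 and 10.9 FPKM in βTC6 (a log2 fold change of 1.46).

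Another list held 9 genes with a Gpr number, for membrane proteins that reside in the Golgi, lysosome or other inner membranes. It included Gpr137b-ps, named as a pseudogene, and all 9 were tested. At an FDR under 5%, 5 were higher in βTC6 (38.7% of all genes tested), 2 were higher in αTC1 (36.0% of all) and 2 did not pass (74.6% of all passed in either direction). Only Gpr137b-ps, 1 of the 9, was called, against 14.3% of all genes tested. Gpr107, which takes part in Golgi traffic, was at 17.5 ± 0.966 FPKM in αTC1 and 18.8 ± 1.36 FPKM in βTC6 (a log2 fold change of 0.01, edgeR adjusted p = 0.887). Gpr137, a lysosomal protein, was at 24.2 ± 1.90 and 26.3 ± 1.92 FPKM (log2 fold change 0.17, SE 0.10, edgeR adjusted p = 0.147), with exons that overlap Bad on the other strand. Gpr108, a Golgi relative of Gpr107, was at 24.9, 24.6 and 22.3 FPKM in αTC1 and at 42.5, 41.7 and 36.0 FPKM in βTC6 (a log2 fold change of 0.80, SE 0.09, edgeR adjusted p = 3.9e-05). Gpr137b-ps, whose name marks a pseudogene, was at 2.90, 2.61 and 3.25 FPKM in αTC1 and at 14.8, 12.8 and 18.0 FPKM in βTC6 and was called (log2 fold change 2.43, SE 0.15, edgeR adjusted p = 7.16e-07), while its near copy Gpr137b was lower in βTC6 (a log2 fold change of -0.48, SE 0.16, edgeR adjusted p = 0.0228). How reads were divided between the copies was set by the authors' estimate, so both values are uncertain. Gpr180 and Gpr137c had log2 fold changes of 1.75 and 1.92 on chromosome 14, where the median of all genes was 1.20.

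Fitted without the FPKM filter, 92 members had at least 1 count, and 23 were called higher in βTC6, 8 higher in αTC1 and 61 not, against 12.8%, 5.21% and, in either direction, 18.0% of all 19570 genes. The calls that appeared only there came from low levels and their members were named after their values were seen. Among them Gpr64 (Adgrg2), an adhesion receptor, had 0 reads in αTC1 and 286 in βTC6, at least 30.9-fold more, and Gpr39, a zinc receptor, was at 0.18, 0.11 and 0.03 FPKM in αTC1 and at 0.80, 0.66 and 0.34 FPKM in βTC6. In the other direction Gpr1, a chemerin receptor, had 119 reads in αTC1 and 3 in βTC6, a ratio of 40.8 (exact 95% interval 13.6 to 201, counting error only).

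Genes for the proteins that act below the receptors were read from the same fit. Of 26 genes for Gα subunits, arrestins, receptor kinases, phospholipase C isoforms and protein kinase D isoforms, 23 were tested, 3 were called higher in βTC6, none was called higher in αTC1 and 20 were not called, against 14.3% of all genes tested that were called in either direction, with a median log2 fold change of 0.33 beside 0.01 over all genes tested. The 3 that were called (Gna13, Gnai1 and Prkd3) passed the filter through βTC6 only, so that a difference was built into their entry. At an FDR under 5% alone, 13 were higher in βTC6, 5 were higher in αTC1 and 5 did not pass, against 74.6% of all genes that passed. Gnas, which encodes Gs, was at 2688 ± 106 FPKM in αTC1 and 2748 ± 176 FPKM in βTC6, and Gnaq was at 20.0 ± 0.409 and 30.5 ± 2.77 FPKM (log2 fold change 0.67). Gnai1, a Gi subunit, was at 0.813 ± 0.119 FPKM in αTC1 and 8.61 ± 1.33 FPKM in βTC6 (a log2 fold change of 3.45, edgeR adjusted p = 2.13e-07), and Prkd3 was at 0.547 ± 0.199 and 4.43 ± 0.772 FPKM (log2 fold change 3.21). Gna13 was listed at 0 in every αTC1 library and at 19.5 ± 1.64 FPKM in βTC6. The peak annotated to it was at the lowest value of the table, worth 1 read, in each αTC1 library and 152 to 324 reads in the βTC6 libraries.

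Across all 201 member peaks, 23 were called more open in βTC6 and 9 more open in αTC1, which is 15.92% in either direction beside 18.3% of all consensus peaks. By direction these were 11.44% in βTC6 beside 12.9% of all peaks, and 4.478% in αTC1 beside 5.38% of all peaks, so the members' shares were near the background in this fit. Under quantile normalisation the counts were 19 and 15, beside 8.69% and 7.88% of all peaks. The lines did not overlap at 126 of the 201, against 63.9% of all peaks, and the median log2 fold change was 0.19, beside 0.00 over all peaks. Within 2 kb of a start site were 47 of the peaks, of which 4 were called in βTC6 and 1 in αTC1, beside 5.51% and 1.41% of all peaks within that distance, and the other 154 were distal. Gpr158 had the most peaks, 11 in number with 3 of them called. Of the 7 on chromosome 14, where the median of all peaks was 1.54, 2 were called in βTC6, and 21 calls in βTC6 remained without that chromosome.

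**Figure D3:**
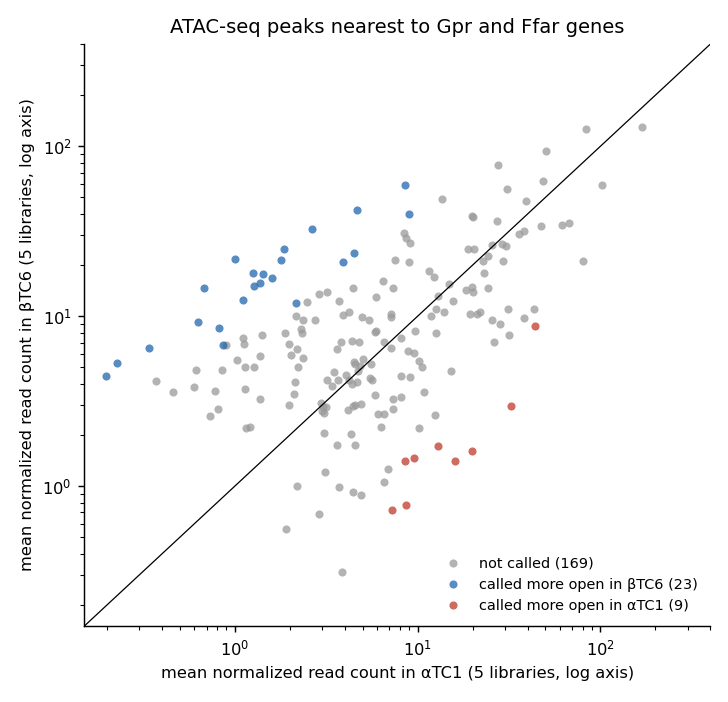
Normalised reads in αTC1 and βTC6, as means of 5 libraries each, for the 201 peaks annotated to the receptor genes; blue and red points are peaks called more open in βTC6 (23) and αTC1 (9), and grey points (169) were not called.

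Called peaks belonged to 23 genes by nearest-gene annotation, of which 8 were tested in RNA, 4 were called in the same direction in RNA (Gpr45, Gpr137b-ps, Gpr146 and Gpr158, against 14.3% of all genes tested that were called in either direction), and 11 had a mean below 0.1 FPKM in both lines, a level below which 46 of all 100 members lay. Gpr45 and Gpr158 had passed the RNA filter through βTC6 only, and Gpr137b-ps also had a peak called the other way, 38034 bp upstream (log2 fold change -2.08). Ffar4 is counted there as untested under its own symbol, although its RNA, listed as O3far1, was called in the direction of its peak. The strongest peaks towards βTC6 by moderated t included those at Gpr39, Gpr45 and Gpr26. The Gpr39 peak at its start site (chr1:127573192-127574127) was at 8.82, 8.15, 7.82, 9.83 and 8.23 in αTC1 and at 51.4, 59.7, 52.2, 53.4 and 78.1 in βTC6. Its means were 8.57 ± 0.791 and 58.9 ± 11.2 (log2 fold change 2.63, SE 0.12, limma adjusted p = 3.84e-13), with RNA below 1 FPKM in every library. Gpr45 had a peak 3690 bp upstream of its start site at 2.64 ± 0.605 in αTC1 and 32.6 ± 3.74 in βTC6 (a log2 fold change of 3.21, SE 0.16, limma adjusted p = 8.01e-13), and another 53519 bp downstream at 8.94 ± 1.46 and 40 ± 3.78 (log2 fold change 2.05, SE 0.12, limma adjusted p = 1.17e-11). Its start site peak was at 12.6 ± 1.74 in αTC1 and 11 ± 1.91 in βTC6 and did not pass the test (limma adjusted p = 0.258). The peak named for Gpr26 lay in an intron of Fgfr2, 44848 bp upstream of the receptor gene, at 0.997 ± 0.597 in αTC1 and 21.8 ± 2.91 in βTC6 (a log2 fold change of 3.56, SE 0.23, limma adjusted p = 3.13e-11), so the nearest-gene name says only which start site was closest.

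Towards αTC1 the strongest were at Gpr151, Gpr107, Gpr146 and Gpr37. The peak named for Gpr151 lay 24954 bp from its start site and was at 44 ± 1.92 in αTC1 and 8.76 ± 1.77 in βTC6 (a log2 fold change of -2.22, SE 0.12, limma adjusted p = 5.06e-12). A peak inside Gpr107 was at 19.8 ± 1.39 in αTC1 and 1.61 ± 0.379 in βTC6 (a log2 fold change of -3.01, SE 0.18, limma adjusted p = 1.43e-11), although Gpr107 RNA did not pass. The peak of Gpr37, 2957 bp inside the gene, was at 11.5 to 13.5 in 4 αTC1 libraries and at 29.2 in the fifth, against 1.03 to 1.89 in βTC6 (a log2 fold change of -2.74).

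Of the 14 genes called in RNA, 12 had a peak within 2 kb of an annotated start site. At 10 of the 12 the peak had the sign of the RNA and passed an FDR under 5%, which 78.0% of all peaks did in either direction. At 3 of them (Gpr81, Gpr98 and Gpr153) the peak was itself called. Of all peaks annotated within 2 kb of a start site, 5.51% were called in βTC6 and 1.41% in αTC1. At Gpr45 and Gpr137b-ps the sign was opposite, with log2 fold changes of -0.19 and -0.33. Ffar3 and Gpr161 had no such peak, and the one nearest to Gpr161 lay 2860 bp from its start site. No gene called in RNA had a start site peak called in the opposite direction. The Gpr153 peak carries the name of its neighbour Hes3, lies over an exon inside Gpr153 and counts only through an alternative annotated start 1074 bp away. It was at 0.933 ± 0.565 in αTC1 and 7.78 ± 1.57 in βTC6 (a log2 fold change of 2.21, SE 0.23, limma adjusted p = 4.17e-08).

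**Figure D4:**
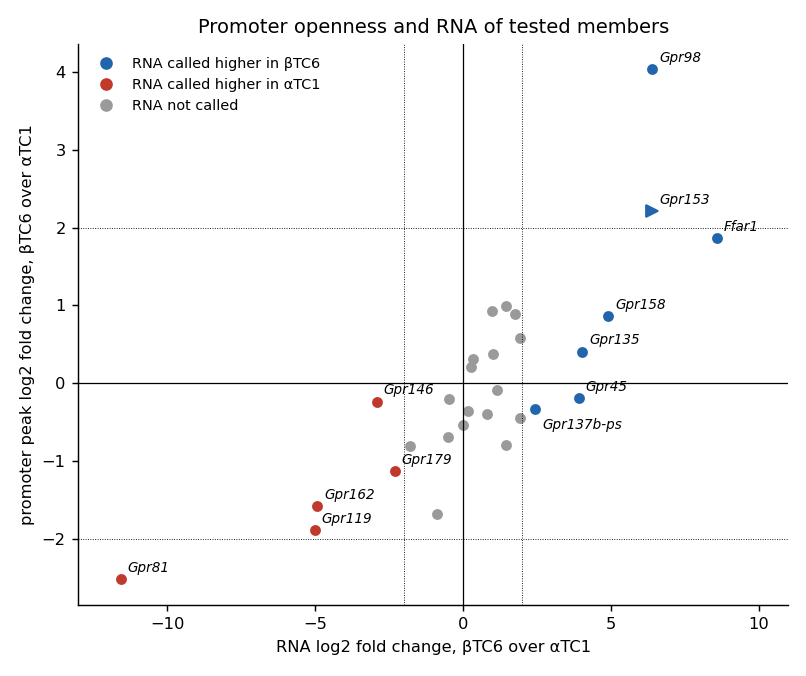
log2 fold change of the nearest peak within 2 kb of a start site (vertical) against the log2 fold change of RNA (horizontal), both βTC6 over αTC1, for the tested genes that have both values; dotted lines mark the fold limit of 2, and the arrow marks the lower bound of Gpr153. Gpr81 lies far into the αTC1 corner and Gpr98 and Gpr153 far into the βTC6 corner, while Gpr45 and Gpr137b-ps are higher in βTC6 RNA with a peak difference near 0.

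In the 23 member peaks called in βTC6, TAATTA was present in 7 (30.4%), beside 13.0% of all 8409 peaks called in βTC6 and 4.20% of the 3502 called in αTC1. None of the 9 member peaks called in αTC1 held it, while 3 of the 9 (33.3%) held CAGCTG, beside 30.9% of all peaks called in αTC1. Over all 201 member peaks TAATTA was in 9.45% and CAGCTG in 23.4%. These are matches of letters in 200-base windows and were not tested as sites. Of the 7 windows, 5 are shown to let the contexts of TAATTA be compared, with motif matches in capitals as above, all on the mm9 plus strand; the set was chosen after the values were seen. They lie near Gpr65, Gpr183, Gpr158, Gpr63 and Gpr12, none of them over an annotated exon. The Gpr65 window held 2 matches to TAATTA.
Gpr65, chr12:99556131-99556330: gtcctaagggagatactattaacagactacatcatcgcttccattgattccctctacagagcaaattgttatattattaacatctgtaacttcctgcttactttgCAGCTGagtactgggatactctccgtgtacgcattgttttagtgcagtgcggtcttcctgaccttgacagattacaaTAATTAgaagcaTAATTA
Gpr183, chr14:122362945-122363144: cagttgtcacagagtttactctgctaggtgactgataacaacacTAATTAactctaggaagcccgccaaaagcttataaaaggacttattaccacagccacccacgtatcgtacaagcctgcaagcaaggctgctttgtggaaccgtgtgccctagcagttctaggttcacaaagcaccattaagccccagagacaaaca
Gpr158, chr2:21321266-21321465: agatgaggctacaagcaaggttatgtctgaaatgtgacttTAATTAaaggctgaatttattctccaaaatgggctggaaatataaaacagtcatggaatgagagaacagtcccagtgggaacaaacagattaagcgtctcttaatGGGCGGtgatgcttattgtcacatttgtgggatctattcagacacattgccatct
Gpr63, chr4:24939077-24939276: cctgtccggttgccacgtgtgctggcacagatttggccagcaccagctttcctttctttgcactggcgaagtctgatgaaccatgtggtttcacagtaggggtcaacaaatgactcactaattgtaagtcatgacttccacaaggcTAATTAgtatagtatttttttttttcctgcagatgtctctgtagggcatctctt
Gpr12, chr5:147459333-147459532: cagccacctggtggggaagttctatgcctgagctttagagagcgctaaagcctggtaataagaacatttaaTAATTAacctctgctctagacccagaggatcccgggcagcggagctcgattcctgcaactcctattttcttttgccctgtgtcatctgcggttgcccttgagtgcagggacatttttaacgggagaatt

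These peaks were low in αTC1 and modest in βTC6. The peak near Gpr65 was at 1.86 in αTC1 and 24.9 in βTC6 (a log2 fold change of 3.20), the peak in Gpr158 was at 1.11 and 12.5 (2.73 on the log2 scale), and the peak near Gpr63 was at 1.42 and 17.6 (2.97 on the log2 scale). Of these 5 genes, Gpr158 alone was called in RNA. Gpr12, with no read in any RNA-seq library, had a peak 62619 bp upstream of its start site at 0.227 in αTC1 and 5.32 in βTC6 (a log2 fold change of 2.32).

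For comparison, the windows of 2 peaks called in αTC1 are shown, also chosen after the values were seen. The windows of the peaks called in αTC1 near Gpr107, Gpr26, Gpr34 and Gpr137b-ps held no match. TGTTTAC was in 2 of the 9 member peaks called in αTC1 (22.2%), beside 8.54% of all peaks called there. It was in 2 of the 23 called in βTC6 (8.70%), beside 7.91% of all peaks called there. The window in Gpr37 held TGTTTAC and CAGCTG, and the window in Gpr146 held GGGCGG.
Gpr37, chr6:25636923-25637122: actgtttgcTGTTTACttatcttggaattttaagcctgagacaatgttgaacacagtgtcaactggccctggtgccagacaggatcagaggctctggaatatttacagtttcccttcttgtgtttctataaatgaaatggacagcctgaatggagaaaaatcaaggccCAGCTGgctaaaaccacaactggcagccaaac
Gpr146, chr5:139858930-139859129: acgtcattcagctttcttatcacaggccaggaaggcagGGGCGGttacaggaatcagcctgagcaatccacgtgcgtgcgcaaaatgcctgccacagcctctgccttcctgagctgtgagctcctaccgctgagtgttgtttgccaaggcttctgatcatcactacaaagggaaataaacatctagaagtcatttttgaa

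The mixtures asked whether receptor peaks that separate the pure lines scale with the share of cells. The 3 called peaks with the largest moderated t in each direction were followed over the 9 mixtures, which the selection did not use. All libraries share the same source lines, and the 9 mixtures are single libraries. A peak that differs strongly between the pure lines should follow their share in a mix of the same lines. The correlations therefore describe the scaling and are no separate evidence for the difference. The Gpr39 peak rose at every step, from 12.6 at 10% βTC6 to 40.3 at 50% and 66.4 at 90% (r = 0.991, Spearman's rho = 1, exact permutation p = 5.51e-06 for both, the smallest that 9 libraries allow, two-sided, adjusted p = 3.31e-05 over 6 peaks). The upstream Gpr45 peak went from 3.05 to 13.2 and 22.3 at the same shares (r = 0.977, rho = 0.983, exact permutation p = 1.65e-05 and 4.96e-05, adjusted 3.31e-05 and 9.92e-05), and the downstream Gpr45 peak from 7.92 to 21.0 and 34.2 (r = 0.984, rho = 0.983, exact permutation p = 1.10e-05 and 4.96e-05, adjusted 3.31e-05 and 9.92e-05). At 90% βTC6 the Gpr39 peak was above the mean of the pure line by less than its SD. There the upstream Gpr45 peak, at 22.3, was below every pure βTC6 library (28.7 to 36.6). The downstream Gpr45 peak, at 34.2, was just below the pure βTC6 libraries (34.9 to 44.7).

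The peaks open in αTC1 fell as the share of βTC6 rose. The Gpr151 peak went from 43.9 at 10% βTC6 to 29.2 at 50% and 16.8 at 90% (r = -0.954, rho = -0.967, exact permutation p = 4.96e-05 and 0.000165, adjusted 7.44e-05 and 0.000248). The Gpr107 peak went from 12.4 to 10.8 and 2.29 (r = -0.942, rho = -0.933, exact permutation p = 0.000209 and 0.00075, adjusted 0.000209 and 0.000899), and the Gpr146 peak from 25.8 to 13.6 and 5.78 (r = -0.928, rho = -0.900, exact permutation p = 0.000193 and 0.00203, adjusted 0.000209 and 0.00203). At 10% βTC6 the Gpr151 peak was within the range of the pure αTC1 libraries (41.9 to 47.0). The Gpr107 and Gpr146 peaks were below every pure αTC1 library (18.8 to 22.1 and 28.6 to 35.7). With the 10% and 90% mixtures left out, the 6 values of r were -0.937, -0.956, -0.849, 0.969, 0.975 and 0.993 in the order Gpr151, Gpr107, Gpr146, downstream Gpr45, upstream Gpr45 and Gpr39. Over these 7 mixtures the exact permutation p lay between 0.000397 and 0.00635.

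**Figure D5:**
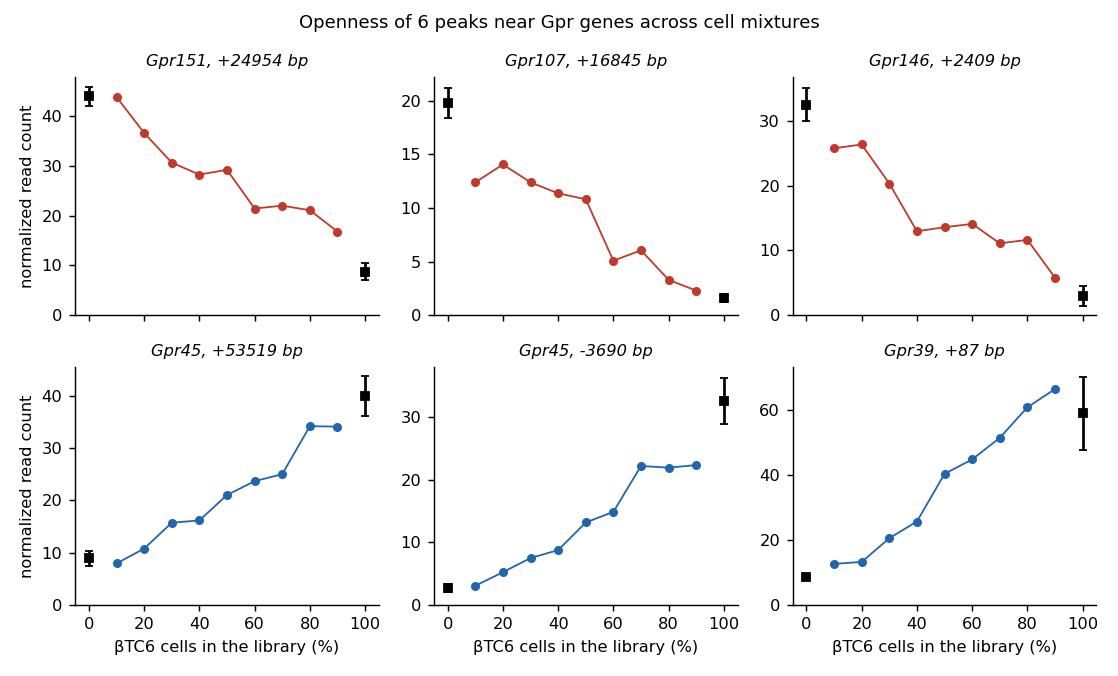
Normalised reads of 6 receptor gene peaks against the percent of βTC6 cells; squares at 0 and 100 are means of the 5 pure libraries of a line with bars of ± 1 SD, and each point between is 1 mixture library. The Gpr39 and Gpr45 peaks rise and the Gpr151, Gpr107 and Gpr146 peaks fall with the share of βTC6.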

How the data were processed

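RNA-seq (3 libraries each of αTC1 clone 6 and βTC6) and ATAC-seq (5 each, and 9 mixtures) were grouped by their labels. For RNA-seq the authors trimmed reads with Trim Galore 0.40, mapped them with Bowtie 2 and estimated gene levels with RSEM 1.2.12 on Ensembl annotation of mm9; the deposited values are expected counts and FPKM. The library kit keeps strand, but the authors ran RSEM with default parameters, which do not use it. For ATAC-seq the authors used Trimmomatic 0.32, BWA 0.7.9a, Picard 1.95, MACS2 2.1.0 per library and DiffBind 2.2.5 consensus peaks present in at least 2 samples, with HOMER 4.6 naming the nearest gene; the deposited signal is reads per peak scaled by TMM.

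Here, expected counts were rounded and fitted with edgeR 4.0.16 (quasi-likelihood, TMM; R 4.3.3) over genes that reached 1 FPKM in each of the 3 replicates of a line, leaving out 92 spike-in rows, which held 0.436% to 0.971% of a library. TMM replaced the RUVSeq step of the study, which was not available. Peaks were fitted with limma 3.58.1 (trend) on log2(value + 1). Calls needed an FDR under 5% together with a log2 fold change beyond 2 in size. The lowest value of an ATAC-seq library is worth 1 read. Correlations used exact permutation tests (SciPy 1.17.1). Scripts were tested on simulated data: with 200 features changed by 3 on the log2 scale, edgeR called 200 of them among 12195 genes and limma 196 among 65053 peaks, and each called 0 unchanged features, although 18 unchanged genes and 65 unchanged peaks passed an FDR under 5% alone. Changed by 1 on the log2 scale, 196 of 200 genes and 29 of 200 peaks passed that FDR, with 10 and 31 unchanged features. Intervals and floors cover counting error only. Gene positions and start sites came from GENCODE vM1 on mm9; 67 genes of the tables were absent from it. Named were all called members, the measured lipid receptors, the 5 highest genes in each line, their nearest peaks within 2 kb and the 5 called peaks of largest moderated t in each direction; others are said to be chosen after their values were seen or serve as examples of a list. The members and lists were chosen with earlier results of these data known. Alternatives were other normalisations, filters, pseudocounts, fold limits, tools, a replicate block and left-out libraries. Protein sequences were not used here, and a few member genes are counted but not reported by name, so the plot of RNA differences leaves out a gene that was tested.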

Additional observations from a re-analysis of the deposited data

Results flagged for a closer look

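Each of the 28 named peaks was examined in both lines, 56 groups of 5 libraries, for a library whose gap to its nearest neighbour exceeds Dixon's 95% critical value, which chance does in about 1 of 20 groups. This held in 4 groups, and in all 4 the library was αTC1 replicate 5. It was the highest at the Gpr158 start site peak, with a normalised read count of 40.6 beside a median of 28.0 in the other libraries, and at the Gpr37 peak 2957 bp inside the gene, with 29.2 beside 12.7. It was the lowest at the Gpr19 start site peak, annotated as 2810454H06Rik, with 106.3 beside 127.4, and at the Gpr137 start site peak, annotated as Bad, with 28.5 beside 45.3. Leaving this library out moved no call at these 4 peaks.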

How the results depend on the processing

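The 9 calls in βTC6 and 5 in αTC1 among the genes were the same number under DESeq2's size factors, DESeq2 itself, spike-in scaling and a replicate block. Without the filter on low values they were 23 and 8, beside 12.8% and 5.21% of all genes, and at an absolute log2 fold change over 1 the βTC6 count was 16, beside 19.1%. Leaving out each library in turn gave 9 to 10 and 4 to 6. The 23 peak calls in βTC6 became 41 in edgeR on recovered reads, 40 with a pseudocount of 0.2, 5 with a pseudocount of 5 and 63 at an absolute log2 fold change over 1, and ranged from 23 to 25 without single libraries; the shares of all consensus peaks called there were 21.2%, 20.2%, 2.56% and 29.8%, beside 12.9%. The 9 in αTC1 became 18, 16, 1 and 35 under the same settings, 15 under quantile normalisation and 14 with replicates 4 and 5 only, and ranged from 8 to 11; the shares of all peaks were 8.82%, 8.58%, 1.26%, 19.2%, 7.88% and 6.71%, beside 5.38%. The fold limit on a log2(value + pseudocount) scale is by construction harder to pass with a larger pseudocount; for quantile normalisation and the replicate subset the cause was not tested. Deviations of same-numbered libraries from their line means had correlations between -0.047 and 0.069 across the lines. In ATAC-seq, replicates 4 and 5 of each line were best matched by the same number in the other line. Whether same-numbered libraries share a batch was not tested. A replicate block left the counts at 9, 5, 23 and 9.

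Quantile normalisation reversed the start site peaks of Gpr146 (0.068) and Gpr108 (0.13). Of 198 values recomputed for 18 named genes, 195 kept direction and side of the threshold, and the others were Gpr179 and Gpr56, given above. Of 504 values for 28 named peaks 489 did, but of the 14 named peaks that were called only 6 stayed called under every alternative. The other 8, near Gpr37, Gpr45 (downstream), Gpr81, Gpr107, Gpr146 (the third), Gpr151, Gpr153 and Gpr183, fell inside the fold limit with a pseudocount of 5, and that near Gpr153 also under quantile normalisation. Without αTC1 replicate 2, the downstream Gpr45 peak had a log2 fold change of 1.99, inside the limit. All 6 mixture correlations kept their sign and side. Low read numbers limit what can be said of the 46 members under 0.1 FPKM and of peaks with few reads, where the log2(value + 1) scale understates differences.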
